A study of Mus musculus with 15 samples.

Results

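B7S1R_SP and DN are sorted populations of PD-1+ Tim-3- CD8+ T cells from mouse tumours, and they differ in whether the receptor of B7S1 is on the surface. B7S1R_SP cells carried B7S1R, and DN cells carried neither Tim-3 nor B7S1R, so DN cells are double-negative for those receptors but positive for PD-1. The comparison used the libraries titled B7S1R_SP_WT_1, B7S1R_SP_WT_2, B7S1R_SP_KO, DN_WT_1, DN_WT_2 and DN_KO, which are 6 of the 15 libraries of the series. They form 3 pairs, 1 within each set (WT_1, WT_2 and KO). The host mice were female and 6 to 8 weeks old when E.G7 cells were placed under the skin, and cells were sorted on day 21, at a labelled age of 9 to 11 weeks. E.G7 is an ovalbumin-producing T cell lymphoma line, and all 6 libraries come from mice that bore it. Mice of the sets WT_1 and WT_2 are titled wild type, and those of the set KO lacked B7S1 in the host, while the tumour line was grafted from outside. No treatment is given for any of the 6 libraries, and the number of mice behind each sorted library is not stated. The labelled strain is of the C57BL/6 kind, but the strain and genotype fields count upward along the list of samples, so the titles were used for grouping. Nothing in the labels says whether sets come from separate sorts or animals, so p-values measure only the spread between these libraries.

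B7S1, also called B7-H4 or VTCN1, is a ligand of the B7 family that restrains T cells through a receptor on their surface. CD8+ T cells that meet tumour antigen for a long time take up PD-1, keep a reservoir of less differentiated cells that express the transcription factor TCF-1 (Tcf7), and give rise to Tim-3+ cells with abundant granzymes. Effector CD8+ T cells kill through perforin and granzymes, release interferon gamma and chemokines such as CCL5, and display inhibitory and costimulatory receptors. Macrophages and dendritic cells of tumours are marked by lysozyme (Lyz2), complement and Fc receptors, and class II antigen presentation genes.

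B7S1R_SP libraries read lower than DN libraries in every set for granzyme B, granzyme K, interferon gamma, Ccl5 and most costimulatory receptors, and higher in every set for Lyz2, C5ar1, H2-Aa and H2-Ab1. The values are FPKM, fragments scaled to transcript length and library total, as deposited by the authors. Fold changes are on the log2(FPKM + 1) scale with their standard error (SE), from a limma fit of the 3 pairs with the set as a block. Of the symbols, 10095 averaged 1 FPKM or more and entered the fit, out of 14020 symbols listed in all 6 files. None of these genes passed an adjusted p of 0.05 by limma (0% called), and the smallest adjusted p was 0.626. At an unadjusted p under 0.05, limma gave 667 genes (6.61%), of which 350 (3.47%) were higher in B7S1R_SP and 317 (3.14%) lower. No other tool was run, because the files hold no counts. The differences below are therefore given as measured values and not as called changes.

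Of all genes tested, 1623 (16.1%) were higher in B7S1R_SP in all 3 pairs and 1413 (14%) lower in all 3. The 3 B7S1R_SP libraries lay above all 3 DN libraries in 397 genes (3.93%) and below them in 315 (3.12%). The pairs differed in breadth. In the WT_1 pair 26.7% of genes were at least 2-fold higher in B7S1R_SP and 14% at least 2-fold lower, against 13.4% and 27.2% in the WT_2 pair and 5.86% and 3.84% in the KO pair. The median difference over all genes was 0.20 in the WT_1 pair, -0.23 in the WT_2 pair and 0.07 in the KO pair (log2).

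Libraries did not always resemble their own set. Over 10095 genes, B7S1R_SP_WT_2 correlated at 0.936 with DN_KO and 0.927 with B7S1R_SP_KO, but at 0.853 with DN_WT_2. B7S1R_SP_KO correlated at 0.948 with DN_KO. B7S1R_SP_WT_1 correlated at 0.818 with DN_WT_1, but at 0.721 with B7S1R_SP_WT_2 and 0.7 with B7S1R_SP_KO. The summed level of 49 oxidative phosphorylation genes was 47896, 55726 and 55047 FPKM in B7S1R_SP_WT_2, B7S1R_SP_KO and DN_KO, against 17088 to 21384 in the other libraries. Haemoglobin Hba-a2 was at 2318 FPKM in B7S1R_SP_WT_2 and 14371 in DN_WT_2, and at most 29.0 in the other libraries compared. It was at 19137 FPKM in TIM-3_SP_WT_2, so haemoglobin is shared by the libraries of the WT_2 set. By its correlations and oxidative phosphorylation sum, B7S1R_SP_WT_2 was closer to the KO libraries than to DN_WT_2, and by haemoglobin it was like its own set. The labels do not say which libraries were prepared together, and whether preparation or an exchange of libraries bears on the pair differences was not tested. Beside most list medians, the value without the WT_2 pair is therefore given.

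The gate was checked against its genes. The T cell receptor gene Cd3e was at 282, 143 and 34.2 FPKM in B7S1R_SP and at 429, 337 and 97.2 in DN, in the order WT_1, WT_2 and KO that is kept below. Cd8a, a chain of the CD8 coreceptor, was at 352, 55.0 and 48.6 FPKM in B7S1R_SP and at 512, 323 and 125 in DN. Both genes were present in all 6 libraries and lower in B7S1R_SP in all 3 pairs. Havcr2, which encodes Tim-3, was at 9.34, 0 and 0.40 FPKM in B7S1R_SP and at 0.65, 4.09 and 0.16 in DN, against 157, 81.8 and 27.4 in the Tim-3+ TIM-3_SP libraries. Pdcd1, which encodes PD-1, was at 353, 28.5 and 3.17 FPKM in B7S1R_SP and at 142, 137 and 12.1 in DN, so its level was low in both libraries labelled KO although PD-1 was a criterion of the sort. The labels do not name the gene of B7S1R, so its level was not checked.

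Granzyme and cytokine genes come first. Granzyme B (Gzmb, chromosome 14, 56258838 to 56262260 of mm10, minus strand), a protease of the killing granule, was at 4.07, 0 and 0.42 FPKM in B7S1R_SP and at 59.8, 28.3 and 8.67 in DN. Every B7S1R_SP library was below every DN library, and the difference was -3.74 ± 0.55 (SE, 3 pairs; limma adjusted p = 0.626). TIM-3_SP libraries of the same sets held 1171, 616 and 397 FPKM of Gzmb, far above both. Interferon gamma (Ifng, chromosome 10, 118441046 to 118445892 of mm10, plus strand) was at 67.6, 40.0 and 17.1 FPKM in B7S1R_SP and at 265, 373 and 99.99 in DN. These groups did not overlap either, and the difference was -2.54 ± 0.48 (limma adjusted p = 0.709). Ifng reached 912, 1692 and 1077 FPKM in TIM-3_SP, the highest of the 3 populations in each set.

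The promoters of Gzmb and Ifng are shown because these effector genes were lower in B7S1R_SP with no overlap between the groups, and that of H2-Aa because it leads the class II genes described further on. Each is the 120 bases just before the RefSeq start site in GRCm38.p6, read 5′ to 3′ on the strand of the gene, at chr14:56262335-56262454 (minus), chr10:118440926-118441045 (plus) and chr17:34287824-34287943 (minus). Capitals mark matches to the motifs searched.
Gzmb: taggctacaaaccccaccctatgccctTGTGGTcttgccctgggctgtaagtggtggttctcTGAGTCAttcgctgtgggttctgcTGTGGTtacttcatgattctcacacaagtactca
Ifng: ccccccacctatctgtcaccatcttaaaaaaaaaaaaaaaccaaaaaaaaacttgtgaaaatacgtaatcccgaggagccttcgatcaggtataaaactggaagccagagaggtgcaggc
H2-Aa: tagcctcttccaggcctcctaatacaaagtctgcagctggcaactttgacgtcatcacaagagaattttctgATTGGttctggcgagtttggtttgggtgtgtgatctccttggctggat

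The motifs were TGANTCA for AP-1, TGTGGT for Runx, GGTGTGA for T-box factors, GAGGAAGT for PU.1 and ATTGG for the Y box of class II genes, each on both strands. The Gzmb window held an AP-1 match at -58 to -52 from the start site and Runx matches at -93 to -88 and -34 to -29. The H2-Aa window held a Y box match at -48 to -44, and the Ifng window held none of the 5 motifs. Of 32851 mouse promoters of 250 bases, 6.75% held the AP-1 letters, 14% the Runx letters, 3.33% the T-box letters, 2.44% the PU.1 letters and 33.8% the Y box letters. No 2 of the matches shown overlap.

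The cytotoxic granule list held 19 genes, of which 17 passed the filter on low values. Among those 17, 8 were lower in B7S1R_SP in all 3 pairs and none was higher in all 3, beside 14% and 16.1% of all genes. By limma, 6 of the 17 were lower at an unadjusted p under 0.05, beside 3.14% of all genes. The list's median difference was -1.27 beside 0.01 for all genes, and it was -0.61, -2.47 and -1.17 in the WT_1, WT_2 and KO pairs and -1.25 without the WT_2 pair. Granzyme K (Gzmk), typical of less differentiated effector cells, was at 105, 12.9 and 2.03 FPKM in B7S1R_SP and at 449, 105 and 29.4 in DN, a difference of -2.78 ± 0.48 (limma adjusted p = 0.626). Nkg7, a granule membrane protein, was at 1687, 602 and 730 FPKM in B7S1R_SP and at 3456, 3522 and 2021 in DN, without overlap (-1.68 ± 0.50). Fas ligand (Fasl) was at 38.4, 4.78 and 1.66 FPKM in B7S1R_SP and at 82.0, 69.0 and 11.5 in DN (-2.30 ± 0.59).

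Perforin and granzyme A did not follow them. Prf1, which encodes the pore protein perforin, was at 51.9, 0 and 0.55 FPKM in B7S1R_SP and at 29.2, 30.4 and 1.54 in DN, higher in B7S1R_SP in the WT_1 pair and lower in the others. Gzma was at 0.36, 32.0 and 15.3 FPKM in B7S1R_SP and at 42.6, 0 and 6.38 in DN, lower in B7S1R_SP in the WT_1 pair and higher in the others. Gzmg and Gzmn were listed at 0 in all 6 libraries.

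Of 18 cytokine and chemokine genes, 16 passed the filter. Among those, 7 were lower and 1 higher in all 3 pairs, beside 14% and 16.1% of all genes. The median was -0.82, and -0.57 without the WT_2 pair. Ccl5, a chemokine stored and released by effector CD8+ T cells, was at 1099, 441 and 221 FPKM in B7S1R_SP and at 2910, 1372 and 662 in DN (-1.54 ± 0.44; limma adjusted p = 0.739). Its difference was nearly alike in the 3 pairs, as the plot of levels by set shows. Lymphotoxin beta (Ltb) was at 283, 138 and 98.3 FPKM in B7S1R_SP and at 878, 673 and 302 in DN, without overlap (-1.84 ± 0.46; limma adjusted p = 0.739). Ccl4, a chemokine of activated CD8+ T cells, was at 45.7, 73.9 and 218 FPKM in B7S1R_SP and at 303, 184 and 344 in DN. Xcl1, which attracts cross-presenting dendritic cells, did not overlap either, at 374 to 748 FPKM in B7S1R_SP and 900 to 1735 in DN. Tnf was mixed in direction (-0.37 ± 0.58). The member that was higher in all 3 pairs was Ccl9, a chemokine of myeloid cells.

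**Figure D1:**
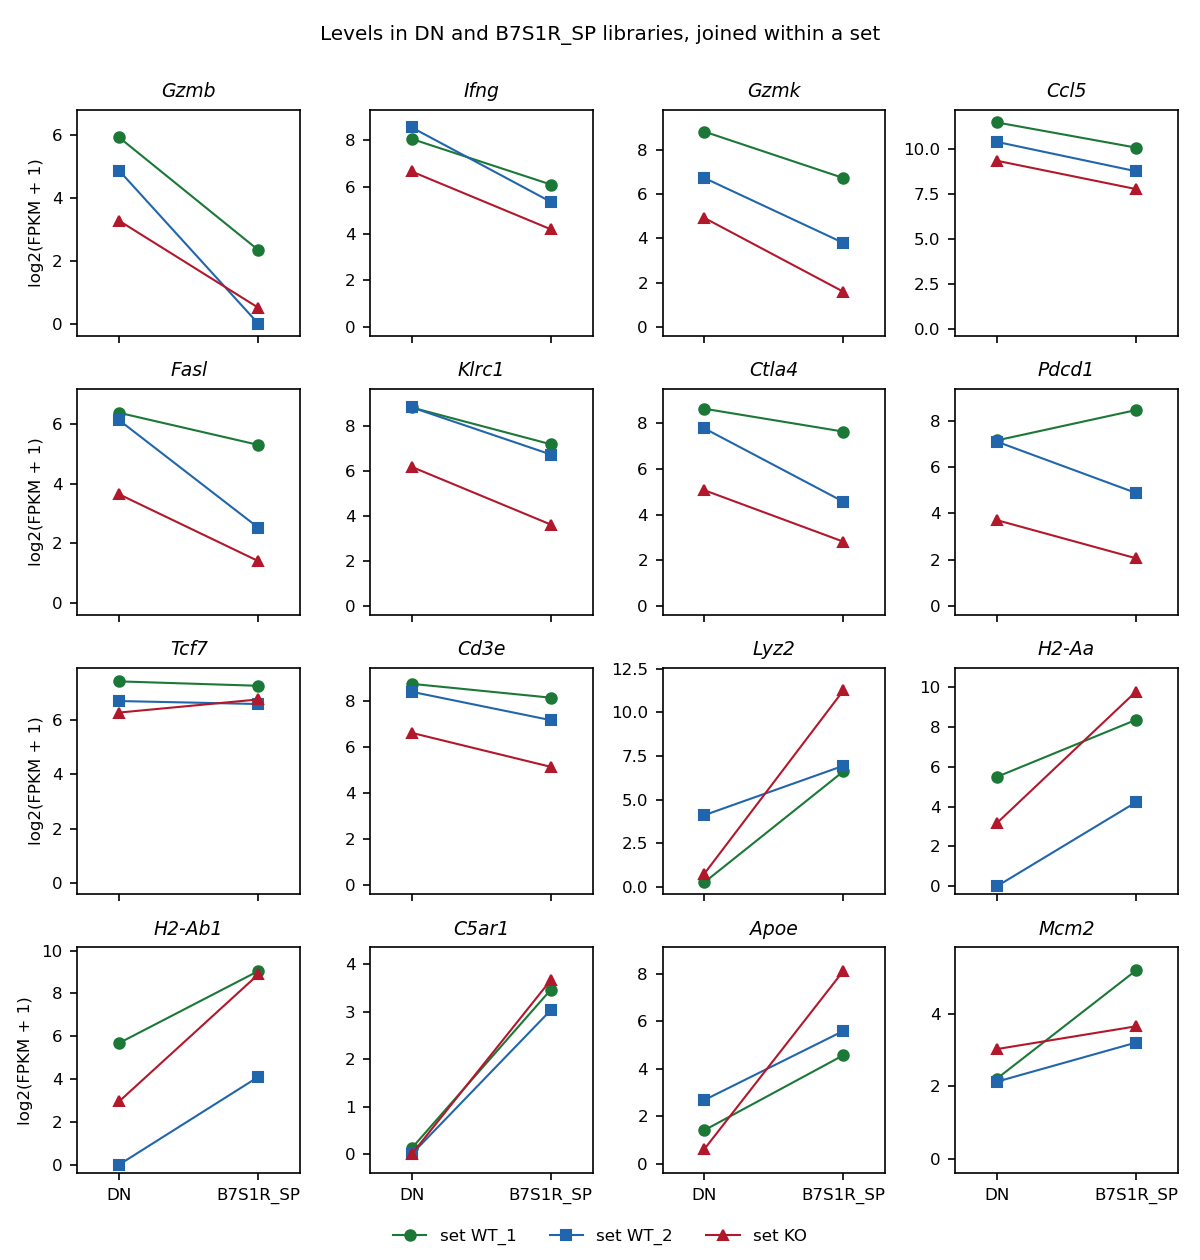
Levels of 16 genes as log2(FPKM + 1) on the vertical axis, with DN on the left and B7S1R_SP on the right, 1 point per library and a line joining the 2 libraries of a set (green circles WT_1, blue squares WT_2, red triangles KO). The lines of Gzmb, Ifng, Gzmk and Ccl5 slope down in every set, those of Lyz2, H2-Aa, H2-Ab1, C5ar1 and Apoe slope up in every set, and Tcf7 is nearly level.

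Receptors of T cell inhibition and costimulation had median differences below 0. Of 21 inhibitory receptor genes, 19 passed the filter. Among those, 7 were lower and none higher in all 3 pairs, beside 14% and 16.1% of all genes. The median was -0.92, and -0.34 without the WT_2 pair. Ctla4, a competitor for costimulatory ligands, was at 199, 22.8 and 6.06 FPKM in B7S1R_SP and at 400, 220 and 32.8 in DN (-2.16 ± 0.56; limma adjusted p = 0.739). Klrc1, which encodes the inhibitory receptor NKG2A, was at 145, 106 and 11.4 FPKM in B7S1R_SP and at 453, 456 and 72.0 in DN (-2.10 ± 0.46; limma adjusted p = 0.739). Tigit was at 790, 173 and 25.9 FPKM in B7S1R_SP and at 1139, 969 and 148 in DN. In each of these genes the KO pair sat below the wild-type pairs in both populations. Pdcd1 and Lag3 were higher in B7S1R_SP in the WT_1 pair and lower in the other pairs, with differences of -0.85 ± 0.74 and -1.55 ± 1.00.

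All 16 genes of the costimulatory list passed the filter, and 12 were lower in all 3 pairs, beside 14% of all genes. The list holds receptors and the ligand genes Cd40lg, Cd70 and Tnfsf4. The median was -1.36, and 7 members were lower at an unadjusted p under 0.05, beside 3.14% of all genes. Tnfrsf9 (4-1BB), induced by T cell receptor signals, was at 134, 21.0 and 3.37 FPKM in B7S1R_SP and at 217, 207 and 46.2 in DN (-2.46 ± 0.65). Slamf1, a homotypic adhesion receptor, was at 0.29, 1.42 and 0.92 FPKM in B7S1R_SP and at 15.2, 9.12 and 3.37 in DN, without overlap (-2.30 ± 0.59). Icos was at 73.4, 21.7 and 5.64 FPKM in B7S1R_SP and at 119, 103 and 15.5 in DN. Without the WT_2 pair the median of the list was -1.05.

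Of 28 chemokine and cytokine receptor genes, 27 passed the filter. Among those, 8 were lower and 2 higher in all 3 pairs, beside 14% and 16.1% of all genes. The median was -0.51, and -0.14 without the WT_2 pair. Il18r1, a chain of the interleukin 18 receptor, was at 36.9, 1.54 and 2.45 FPKM in B7S1R_SP and at 97.0, 56.1 and 17.99 in DN (-2.77 ± 0.66; limma adjusted p = 0.739). Cxcr3, which guides effector T cells to interferon-induced chemokines, was at 138, 12.1 and 5.08 FPKM in B7S1R_SP and at 365, 208 and 16.9 in DN (-2.32 ± 0.63). The tissue residency list had 5 of 16 tested members lower in all 3 pairs, beside 14% of all genes. Cxcr6 was among them (-1.85 ± 0.60). The list's median of -0.89 was -0.21 without the WT_2 pair.

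Stem-like and memory genes did not form a single pattern. Tcf7 was at 150, 94.1 and 106 FPKM in B7S1R_SP and at 168, 102 and 75.6 in DN, a difference of 0.07 ± 0.46. In TIM-3_SP it was at 12.1, 7.36 and 15.7 FPKM, below both populations in each set. All 21 genes of the list passed the filter. Among them, 10 were lower and none higher in all 3 pairs, beside 14% and 16.1% of all genes. The median was -0.71, and -0.50 without the WT_2 pair. Il7r, the interleukin 7 receptor of memory cells, was at 68.9, 6.73 and 26.4 FPKM in B7S1R_SP and at 106, 72.9 and 31.6 in DN. S1pr1, which leads T cells out of tissue, was at 4.98, 4.79 and 5.94 FPKM in B7S1R_SP and at 77.3, 20.1 and 7.70 in DN, without overlap (-1.97 ± 0.69). Ccr7, the lymph node homing receptor, was at 569, 55.1 and 33.0 FPKM in B7S1R_SP and at 988, 496 and 68.0 in DN (-1.65 ± 0.60). Tcf7 was thus mixed in direction, while both of these receptors were lower in B7S1R_SP in each pair.

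Of 21 exhaustion and effector factors, 19 passed the filter. Among those, 5 were lower in all 3 pairs, beside 14% of all genes. The median was -0.80, and -0.21 without the WT_2 pair. Id2, a partner of E proteins in effector differentiation, was at 385, 344 and 164 FPKM in B7S1R_SP and at 871, 795 and 373 in DN, a difference of -1.19 ± 0.44 that was nearly alike in the pairs. Eomes, a T-box factor, was at 14.4, 6.02 and 1.58 FPKM in B7S1R_SP and at 30.4, 22.1 and 4.44 in DN. Tox, the regulator of the exhausted state, had a difference of -0.86 ± 0.55. All 33 genes of the T cell receptor signalling list were tested. Of these, 13 were lower and 2 higher in all 3 pairs, beside 14% and 16.1% of all genes. The median was -0.80, and -0.23 without the WT_2 pair. Malt1, a protease that links the receptor to NF-kB, was higher in B7S1R_SP, at 20.3, 9.76 and 9.95 FPKM against 3.73, 4.85 and 6.18.

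General T cell genes were lower as well. Among all 20 T cell identity genes, 11 were lower and none higher in all 3 pairs, beside 14% and 16.1% of all genes. The median was -0.80. It was -0.34, -1.71 and -0.52 by pair, and -0.44 without the WT_2 pair. Their summed level was 6385, 3176 and 2729 FPKM in B7S1R_SP and 9572, 7461 and 4135 in DN. In these bulk libraries, fewer cells of a type and less RNA of that type per cell cannot be told apart. When each library was centred on the median of its T cell identity genes, a choice made after seeing the data, the median of all genes moved to 0.93 (log2). On that scale Gzmb differed by -2.82 and Ifng by -1.62. The medians of the cytotoxic granule, costimulatory and NK lists stayed below 0, at -0.35, -0.44 and -0.36, while that of inhibitory receptors was 0.00. The medians of the other T cell lists turned above 0 there, all of them below the 0.93 of all genes. The part of T cell RNA content in the granzyme and receptor differences was not tested.

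**Figure D2:**
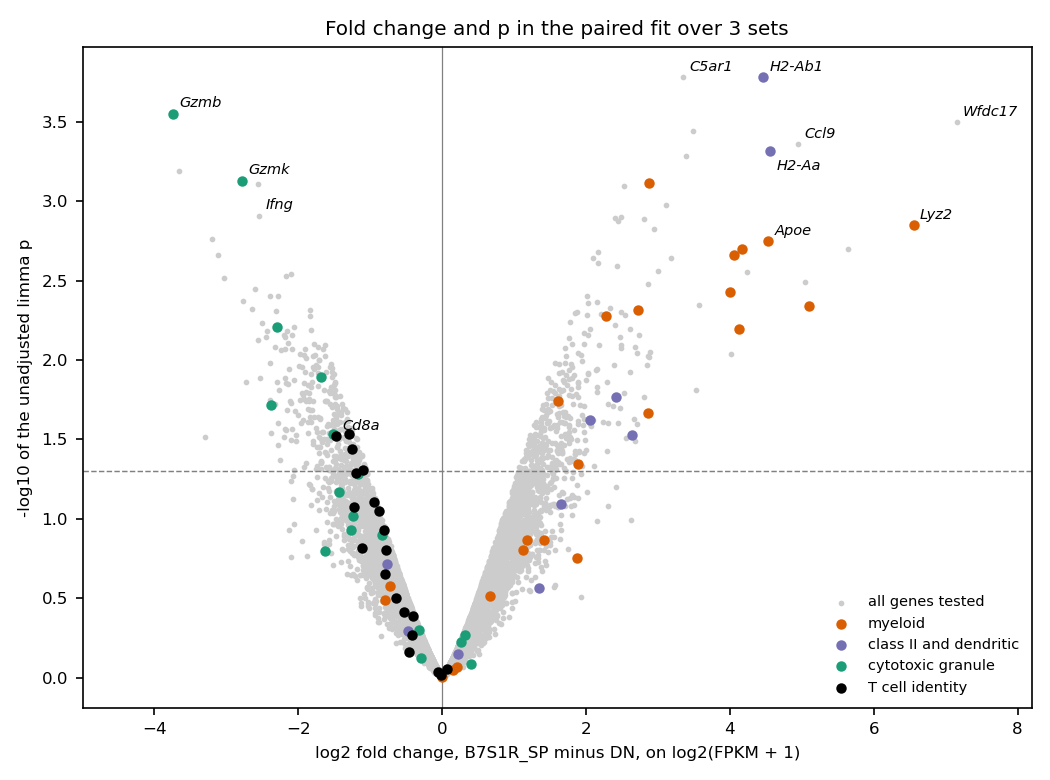
Difference B7S1R_SP minus DN on log2(FPKM + 1) (horizontal axis) against -log10 of the unadjusted limma p (vertical axis) for 10095 genes, with 4 lists in colour and a dashed line at an unadjusted p of 0.05. Gzmb lies at -3.74 and Lyz2 at 6.55, and no gene passed the adjusted threshold.

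Myeloid and class II genes were among the largest positive differences. Lyz2 (chromosome 10, 117277331 to 117282321 of mm10, minus strand), the lysozyme of macrophages and granulocytes, was at 97.7, 122 and 2439.6 FPKM in B7S1R_SP and at 0.21, 16.4 and 0.70 in DN. The groups did not overlap, and the difference was 6.55 ± 1.27 (limma adjusted p = 0.712). It was largest in the KO pair. The class II chain H2-Ab1 (chromosome 17, 34257689 to 34269419 of mm10, plus strand) was at 526, 16.1 and 472 FPKM in B7S1R_SP and at 50.3, 0 and 6.74 in DN (4.46 ± 0.60; limma adjusted p = 0.626). Its partner H2-Aa (chromosome 17, 34282744 to 34287823 of mm10, minus strand) was at 325, 17.6 and 871 FPKM in B7S1R_SP and at 43.8, 0 and 7.98 in DN (4.56 ± 0.74). Both class II genes were higher in B7S1R_SP in every pair, but the WT_2 value of B7S1R_SP lay below the WT_1 value of DN.

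Other genes of myeloid cells that were higher in B7S1R_SP in every pair were read gene by gene. C5ar1, the receptor of complement fragment C5a on myeloid cells, was at 10.0, 7.17 and 11.7 FPKM in B7S1R_SP and at 0.09, 0 and 0 in DN (3.34 ± 0.45; limma adjusted p = 0.626). Spi1, which encodes the myeloid transcription factor PU.1, was at 5.08, 3.85 and 14.7 FPKM in B7S1R_SP and at 0, 0 and 0.18 in DN (2.87 ± 0.50). Both were nearly silent in DN and low but present in every B7S1R_SP library. Apoe, a lipid carrier abundant in macrophages, was at 22.9, 47.5 and 280 FPKM in B7S1R_SP and at 1.66, 5.43 and 0.53 in DN (4.53 ± 0.92). Arg1, an arginine-degrading enzyme of tumour macrophages, was at 2.61, 101 and 216 FPKM in B7S1R_SP and at 0.97, 0 and 0 in DN (5.10 ± 1.23). Wfdc17 was at 16.3, 122 and 1513 FPKM in B7S1R_SP and at 0, 0 and 0.12 in DN. The B7S1R_SP_KO library was the highest for each of these genes. C5ar1, Spi1, Arg1 and Wfdc17 passed the filter on low values only through B7S1R_SP.

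Of 30 myeloid marker genes, 25 were listed in all 6 files and 23 passed the filter. Of those 23, 12 were higher and none lower in all 3 pairs, beside 16.1% and 14% of all genes. In 11, every B7S1R_SP library was above every DN library, beside 3.93% of all genes. Mrc1 (0 in DN), Csf1r (at most 0.14 FPKM) and Spi1 (at most 0.18) passed the filter only through B7S1R_SP. So did Adgre1 (at most 0.02 FPKM in DN), Fcgr3 (at most 0.33), Arg1 (at most 0.97) and Lyz1 (at most 1.16). For such members the mean difference could only be positive, so these counts are not independent of the filter. The remaining members tested, 11 of 23, were mixed in direction. Cd68, Ctss and Ccr2 were lower in B7S1R_SP in both wild-type pairs and higher in the KO pair. The list's median was 1.89, and 2.19 without the WT_2 pair. Markers at 1 FPKM or more numbered 18, 17 and 24 of 25 in B7S1R_SP and 10, 11 and 7 in DN, and those at 0 numbered 2, 1 and 0 against 8, 9 and 8. The summed level was 1940, 1215 and 7158 FPKM in B7S1R_SP and 2171, 2261 and 938 in DN. The sum was thus lower in B7S1R_SP in both wild-type sets and higher only in the KO set. Cst3 was at 532 to 1929 FPKM and Ctss at 138 to 306 in the DN libraries, while Lyz2 and Fcer1g were the largest entries in B7S1R_SP_KO. C1qa, C1qb and C1qc, complement genes of tissue macrophages, were read in the sets WT_2 and KO, at 3.08 to 9.18 FPKM in B7S1R_SP_WT_2, at 116 to 587 in B7S1R_SP_KO and at 0 in both DN libraries. The dendritic cell integrin Itgax was at 0 in 5 libraries and at 0.48 FPKM in B7S1R_SP_KO. The sort took CD8+ PD-1+ cells, and the part of other cells in the differences was not tested.

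Of 19 class II and dendritic genes, 15 were listed and 10 passed the filter. Of those 10, 3 were higher and 1 lower in all 3 pairs, beside 16.1% and 14% of all genes. The summed level of the 15 listed genes was 2306, 182 and 2726 FPKM in B7S1R_SP and 553, 244 and 135 in DN. Cd74, the invariant chain, was at 943, 125 and 1019 FPKM in B7S1R_SP and at 356, 163 and 65.6 in DN, lower in B7S1R_SP in the WT_2 pair alone. The median of 1.86 was 3.05 without the WT_2 pair, and by pair it was 3.06, -0.27 and 3.24. Of 12 neutrophil markers, 3 passed the filter (Il1b, Cxcr2 and Csf3r). All 3 were higher in B7S1R_SP in every pair, beside 16.1% of all genes. Cxcr2 was also present in DN, at 22.6, 33.3 and 135 FPKM against 90.0, 156 and 224 in B7S1R_SP. The granulocyte genes S100a8 and Ly6g were at most 4.76 and 3.12 FPKM in the B7S1R_SP and DN libraries that list them. Ly6g, left out by the filter, was lower in B7S1R_SP in every pair, at 0.35, 0.07 and 0.85 FPKM against 3.12, 0.38 and 1.21. Il1b, the inflammatory cytokine, was at 55.5, 0.17 and 74.2 FPKM in B7S1R_SP and at most 0.17 in DN. It thus passed the filter only through B7S1R_SP.

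The erythroid list, summed over 4 genes, was at 14416 FPKM in DN_WT_2 and 2318 in B7S1R_SP_WT_2, and at most 29.0 in the other libraries compared. Of 10 B cell markers, 2 passed the filter, and Cd79b was at 32.8 FPKM in DN_WT_1 and at most 13.0 elsewhere. Of 14 stromal and endothelial markers, 2 passed, and Acta2, a smooth muscle actin, was at 83.5 FPKM in DN_WT_2 and 38.1 in B7S1R_SP_WT_2. Of 8 CD4 and regulatory T cell markers, Cd4 was at 23.4 FPKM in B7S1R_SP_WT_1 and at most 2.44 in the other libraries, and Foxp3 was at most 1.41. Of 9 NK markers, 5 passed the filter. Among those, 1 was higher and 2 lower in all 3 pairs, beside 16.1% and 14% of all genes. The NK list had a median of -1.28, and -1.84 without the WT_2 pair. Fcgr3, which is also in the myeloid list, was the member higher in B7S1R_SP, without overlap (4.17 ± 0.86). Txk, a kinase of T and NK cells, was at 3.31, 2.84 and 4.24 FPKM in B7S1R_SP against 31.6, 16.5 and 9.96 in DN, without overlap (-2.06 ± 0.53).

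**Figure D3:**
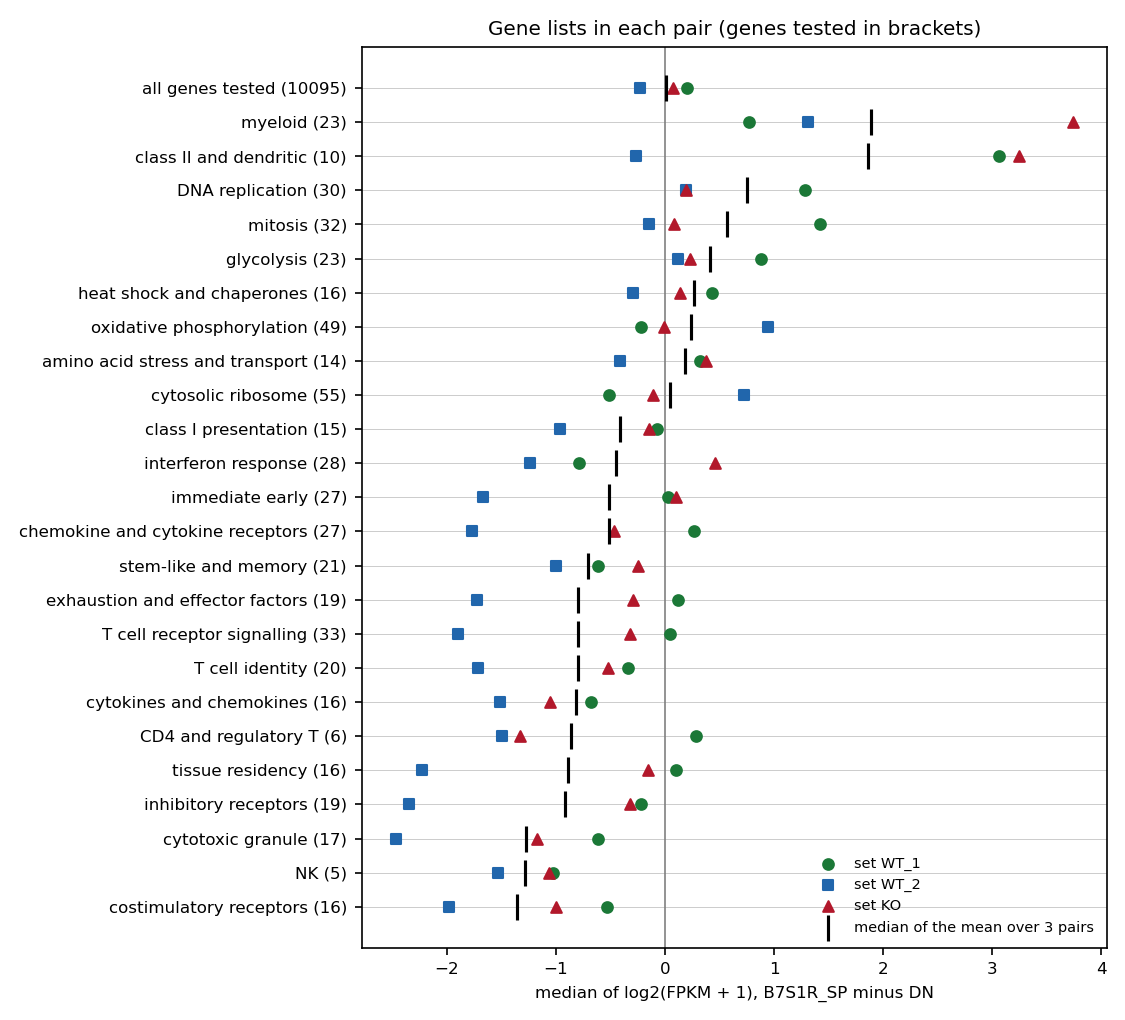
Median difference B7S1R_SP minus DN (log2) for each gene list, with a separate mark for each of the 3 pairs and for the mean of the pairs, beside the median of all genes tested. Myeloid genes lie above 0 in every pair (0.77, 1.31 and 3.74) and cytotoxic granule genes below 0 in every pair (-0.61, -2.47 and -1.17).

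**Figure D4:**
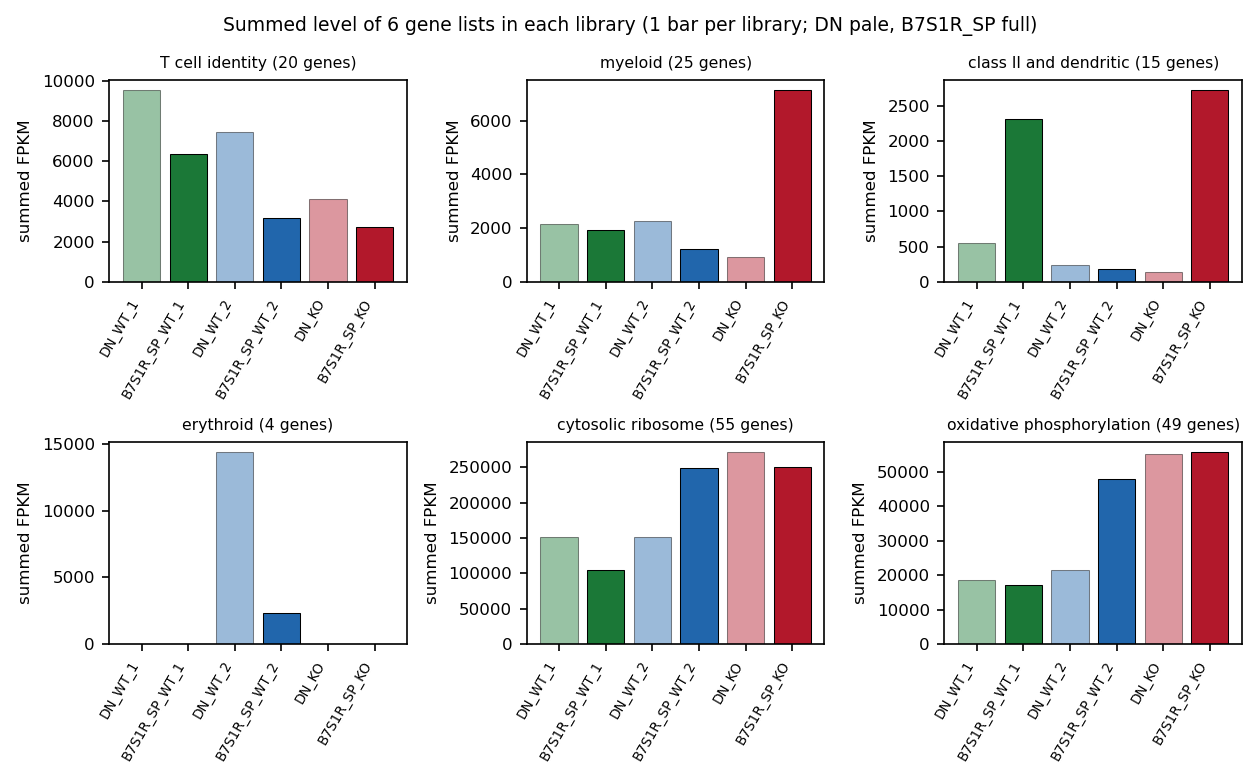
Summed FPKM of 6 gene lists in each of the 6 libraries, 1 bar per library on a linear axis from 0, pale for DN and full for B7S1R_SP. T cell identity sums are lower in B7S1R_SP in every set, the myeloid sum is highest in B7S1R_SP_KO (7158 FPKM), and the erythroid sum is largest in the WT_2 set.

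DNA replication genes had a median above 0 in each pair, and mitosis genes did not. All 30 DNA replication genes passed the filter, and 13 were higher and none lower in all 3 pairs, beside 16.1% and 14% of all genes. By limma, 3 of the 30 were higher at an unadjusted p under 0.05, beside 3.47% of all genes. The median was 0.75, from 1.28 in the WT_1 pair and 0.19 in both others. Mcm2, a subunit of the replicative helicase, was at 35.7, 8.23 and 11.6 FPKM in B7S1R_SP and at 3.63, 3.37 and 7.15 in DN, without overlap (1.56 ± 0.59). Uhrf1, which keeps DNA methylation through replication, was at 7.96, 6.42 and 15.0 FPKM in B7S1R_SP and at 0.58, 0.20 and 8.77 in DN (1.95 ± 0.55). Of 32 mitosis genes tested, 7 were higher and none lower in all 3 pairs and 25 were mixed, beside 16.1% of all genes higher in all 3. The mitosis median of 0.57 came from 1.42, -0.15 and 0.08, and was 0.07 without the WT_1 pair. Mki67, the proliferation marker, was at 2.34, 4.76 and 6.85 FPKM in B7S1R_SP and at 0.33, 3.38 and 2.70 in DN.

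Metabolic lists differed in direction between pairs or by small medians. Of 23 glycolysis genes tested, 8 were higher and 1 lower in all 3 pairs, beside 16.1% and 14% of all genes. The median was 0.41, 0.58 without the WT_2 pair and 0.16 without the WT_1 pair. The lactate exporter Slc16a3 was at 47.1, 1.42 and 1.73 FPKM in B7S1R_SP and at 4.78, 0 and 0.31 in DN. The 49 oxidative phosphorylation genes had a median of 0.24, which came from the WT_2 pair (0.94) and was -0.07 without it. The 55 cytosolic ribosome genes had a median of 0.05, from -0.51, 0.72 and -0.11, and of -0.28 without the WT_2 pair. Rpsa was the 1 member higher in all 3 pairs. The amino acid stress and heat shock lists had medians of 0.18 and 0.27, and of 0.43 and 0.23 without the WT_2 pair. Without the WT_1 pair these medians were 0.11 and -0.06.

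Interferon-stimulated genes and immediate early genes varied by pair. Of 28 interferon response genes tested, 6 were lower in all 3 pairs, beside 14% of all genes. The median of -0.45 came from -0.79, -1.24 and 0.46, and was -0.20 without the WT_2 pair. Ifit1, an RNA-binding antiviral protein, was at 4.42, 1.68 and 1.63 FPKM in B7S1R_SP and at 22.4, 11.2 and 5.02 in DN, without overlap (-1.83 ± 0.47). Immediate early genes (27 tested) had a median of -0.51, from 0.03, -1.67 and 0.10, and 0.13 without the WT_2 pair. The class I presentation list had a median of -0.41 and 0.06 without that pair.

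Among genes outside these lists, chosen by the smallest unadjusted p, Bik was lower in every pair. Bik, a BH3-only protein that promotes cell death, was at 0, 0.44 and 0 FPKM in B7S1R_SP and at 5.13, 8.72 and 3.93 in DN (-2.56 ± 0.45; limma adjusted p = 0.626). In the other direction, the cytokine oncostatin M (Osm) was at 7.64, 3.86 and 3.34 FPKM in B7S1R_SP and at 0, 0 and 0.03 in DN. Properdin (Cfp), a stabiliser of the complement convertase, was at 30.01, 5.75 and 19.98 FPKM in B7S1R_SP and at 0.27, 0 and 1.42 in DN (3.49 ± 0.54). Ltb4r1, the leukotriene B4 receptor, was listed at 0 in all 3 DN libraries and at 3.49 to 6.28 FPKM in B7S1R_SP. None of these groups overlapped. Osm, Cfp and Ltb4r1 passed the filter only through B7S1R_SP, and Bik only through DN. Their directions and lack of overlap are thus not independent of the filter and of the ranking by p.

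The difference between populations was compared between the KO pair and the wild-type pairs. Limma called no gene of 10095 for this interaction (0% called), and 105 had an unadjusted p under 0.05. With 1 pair of libraries from B7S1 KO mice, the effect of genotype and that of the single pair cannot be told apart. The difference in Lyz2 was 6.35 in the WT_1 pair, 2.83 in the WT_2 pair and 10.49 in the KO pair (log2), an interaction of 5.90 ± 1.68 (limma adjusted p = 1). Apoe differed by 3.16, 2.91 and 7.52 in the same order (interaction 4.48 ± 1.44; limma adjusted p = 1). For Gzmb the differences were -3.58, -4.87 and -2.77, and for Ifng -1.95, -3.19 and -2.48, and the interactions were 1.46 ± 1.47 and 0.10 ± 1.47. The difference was largest in the KO pair for 20 of the 23 myeloid genes tested. It was largest in the WT_1 pair for 2 and in the WT_2 pair for 1, a count with no test. No share of all genes is set beside that count. Adgre1, Cybb and Trem2 passed the filter only through B7S1R_SP_KO (15.98, 9.54 and 8.08 FPKM), so their part in it was fixed by the filter. Gzmb and Ifng were lower in B7S1R_SP in each genotype. With a pseudocount of 5 FPKM in place of 1, limma called 8 genes for the interaction, all with a larger difference in the KO pair. They were Ccl8, Ccl12, Ccl6, Cd68, Lgals3, Lyz1, Lyz2 and Wfdc17. Ccl8, a monocyte chemokine, was at 278 FPKM in B7S1R_SP_KO, at 4.05 in DN_WT_1 and at 0 in the other libraries. Ccl12 was at 178 FPKM in B7S1R_SP_KO and at most 0.3 in the other libraries. Ccl8 and Ccl12 passed the filter only through B7S1R_SP_KO, so their direction is not independent of the filter.

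**Figure D5:**
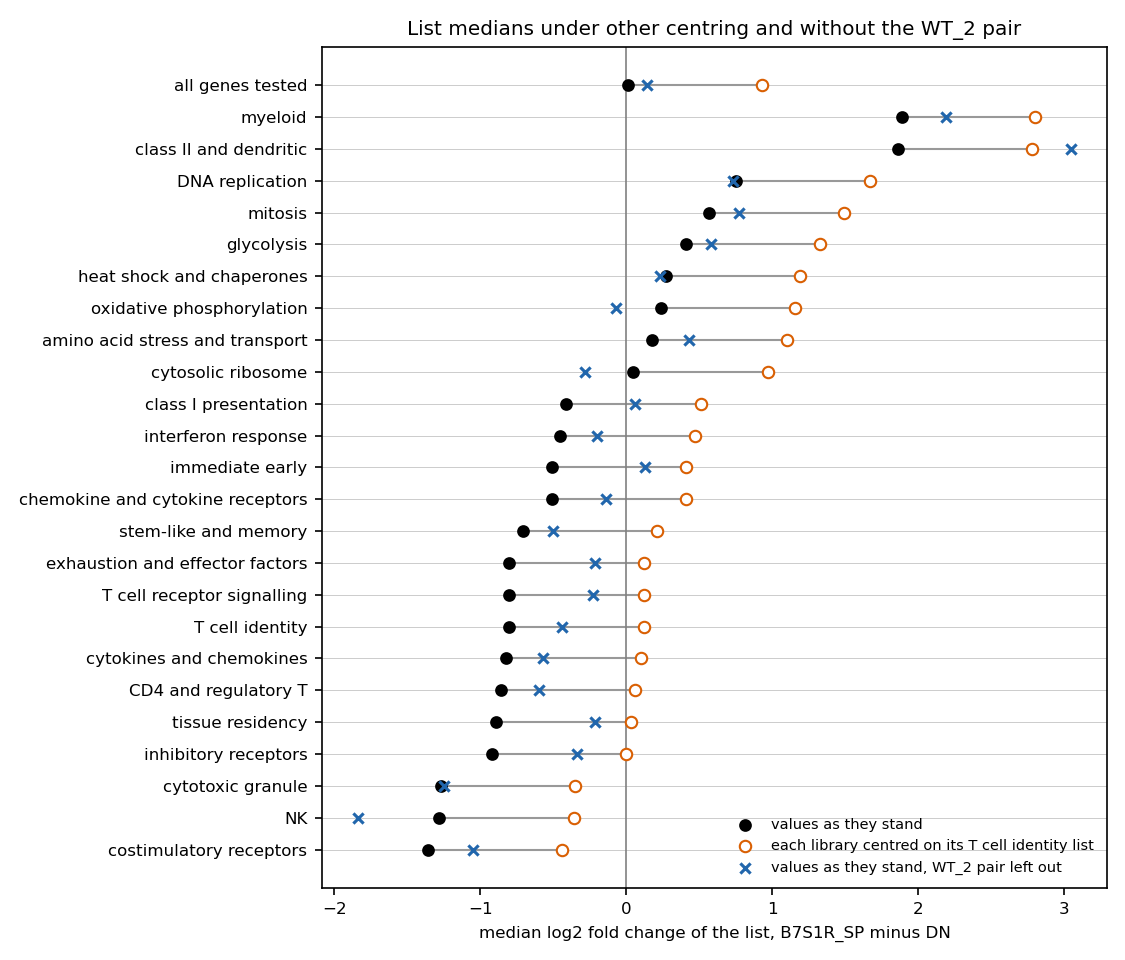
Median difference B7S1R_SP minus DN (log2) of each gene list with values as they stand (black), with each library centred on its T cell identity list (open orange) and without the WT_2 pair (blue crosses). Centring moves the median of all genes to 0.93, and the cytotoxic granule, NK and costimulatory medians stay below 0 in all 3 readings.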

How the data were processed

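RNA of sorted CD8+ T cells was measured with the SMARTer ultra low input kit on Illumina HiSeq machines, per the labels' protocols. The deposited FPKM values were made by the authors, with 2 decimals and 0.01 as the lowest value above 0, and the submitters' processing notes name HISAT2, Bowtie2, RSEM and mm10 without versions. Filters, strand, annotation and read totals are not given in the sources used here, so the depth is unknown and no count model or counting interval was used.

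A symbol given on several rows was dropped, and genes had to be listed in all 6 files. Values were analysed as log2(FPKM + 1), which understates changes of low genes, with limma 3.58.1 in R 4.3.3 at a mean of at least 1 FPKM, the set as a block, Benjamini-Hochberg adjustment and a threshold of 0.05. A second fit tested the KO pair against the wild-type pairs. The fits were tested on simulated data. The sets were paired by their titles. Deviations from the population means correlated within a set at 0.506, 0.02 and 0.556 for WT_1, WT_2 and KO, so the data do not show that all sets pair.

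The members and the 28 gene lists were chosen with earlier results of these data known, and lists are described by counts and medians with no test. Named genes were a panel, up to 10 genes per direction with the smallest p and at least a 2-fold difference of the same sign in all 3 pairs, and up to 4 members per list with the largest such mean difference. The ranked genes exclude histone genes, pseudogenes, predicted genes, small RNAs and variable segments of receptors. 1 further gene is not reported here. Other members printed in the report were chosen after their values were seen. Promoters are from RefSeq (GRCm38.p6) and gene coordinates from GENCODE for mm10. Alternatives changed the block, filter, pseudocount, scaling, libraries and treatment of unlisted genes.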

Additional observations from a re-analysis of the deposited data

Results flagged for a closer look

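Interferon response genes had a median difference (B7S1R_SP minus DN, log2) of 0.46 in the KO pair against -0.79 and -1.24 in the WT_1 and WT_2 pairs. The list was flagged because the KO pair had the other sign. The difference between genotypes was not tested for the list, and it rests on 1 KO pair.

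Vtcn1, the gene of B7S1 that the KO mice lack, was at 0.16 FPKM in B7S1R_SP_KO and 1.02 FPKM in DN_KO, and at 0 in B7S1R_SP_WT_2 and DN_WT_2. It was flagged because it reads above 0 in libraries labelled KO and not in the wild-type libraries numbered 2. No value for Vtcn1 was available in the WT_1 libraries. The labels do not say which part of the gene was deleted, so FPKM over the whole gene does not check the label.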

How the results depend on the processing

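The number of genes past the threshold was 0 with the replicate block and 0 with no replicate block, where 290 rather than 667 genes had an unadjusted p under 0.05. It was 0 under the other planned scalings, pseudocounts and filters. Leaving out replicates gave 0 to 9 genes: 9 without the WT_1 pair (Arg1, Wfdc17, Tyrobp, Ccl7, Ccl6, H2-Aa, H2-Ab1 and Ccl9 higher, Gm156 lower) and 1, Arg1, without the block and B7S1R_SP_WT_1. Centring on the T cell list, chosen after seeing the data, gave 11 genes, all higher (Ccl9, Cfp, H2-Ab1, Lyz2, Wfdc17, C5ar1, Clec4n, H2-Aa, Aif1, Tgfbi and Apoe, adjusted p 0.0271 to 0.0403). Over all alternatives the smallest adjusted p ran from 0.00737 to 1. The interaction gave 0 genes, also with no filter and with a pseudocount of 0.1, and 8 with a pseudocount of 5. Of 28 lists, 17 had a median below 0, and 4 after centring on the T cell list. Of 113 named genes, 0 passed, against 8 after that centring, and 0 to 5 with replicates left out (5 without the WT_1 pair). Among 1456 values of named genes under alternatives, 19 in 17 genes had the other sign. Centring on the T cell list gave Ccl3 0.25, Pdcd1 0.07, Tox 0.06, Tbx21 0.22, Id3 0.40, Siglech 0.15, Psmb10 0.17, Erap1 0.29, Psmb8 0.37, Nfkbia 0.03, Eno3 0.24, Atf4 0.27 and Dnajb1 0.76, and a pseudocount of 0.1 gave Havcr2 -0.26. With replicates left out, Prf1 ran from -2.84 to 0.05, Gzma from -1.93 to 3.10, Ccl3 from -1.19 to 0.24, Havcr2 from -1.04 to 1.46 and Tcf7 from -0.14 to 0.19. The cause of these moves was not tested. Precision is limited by 3 pairs and by a depth that is unknown.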
